A study of Mus musculus with 8 samples.

Results

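The chemokine genes Ccl2, Ccl7, Ccl5, Cxcl1, Cxcl5, Cxcl10, Cxcl12, Cxcl14, Cxcl16 and Cx3cl1 were followed in cultures of mouse primary myotubes, the multinucleated muscle fibres that form when myoblasts fuse. They are a set of 10 genes that was chosen with earlier results of these data known. They were found by symbol among the 53647 Ensembl gene identifiers of the count files, and each matched 1 identifier. Wild-type myoblasts came from limb muscle of pups 2 to 3 days old, were differentiated in medium with 5% horse serum, and were harvested at 72 h. The 4 groups were control cultures and cultures that received interleukin 6 (IL6), leukaemia inhibitory factor (LIF) or oncostatin M (OSM) at 250 ng/ml for 48 h, with 2 libraries per group, called replicates 1 and 2. The labels do not say whether replicates came from separate animals or dishes, so p-values measure only the spread between these libraries, which may be technical. They also do not say whether control cultures received a vehicle.

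Chemokines are small secreted or membrane-bound proteins that direct the movement of leukocytes and progenitor cells through G protein-coupled receptors. Their names follow the spacing of the first conserved cysteines, which gives the CC, CXC and CX3C classes. In muscle they are known for drawing neutrophils and monocytes into injured tissue and for guiding muscle precursor cells. OSM, LIF and IL6 act through receptors that share the gp130 subunit and signal through JAK kinases and STAT3.

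Gene totals were 29482077 to 30025471 counts per library. All 6 myotube markers examined (Ckm, Acta1, Actn2, Tnnt3, Myh3 and Mymk) had a mean of at least 100 counts, and none was called in any comparison. With OSM all 6 had log2 values below 0 (median -0.22). An unadjusted p under 0.05 (edgeR) was found for 5 of them and for 5115 of all 15603 tested genes. The lowest adjusted p values were 0.0512 for Mymk and 0.0549 for Myh3 (edgeR), while 21.4% of all tested genes were called with OSM. The part of this shift in the chemokine results was not tested. Their summed level in CPM (counts relative to the scaled total of the library), was 16650 to 17150 in control, 13750 to 16360 with IL6, 15030 to 15980 with LIF and 14440 to 14570 with OSM. The lowest sum was in IL6 replicate 1. Of the leukocyte markers, Ptprc (CD45) had 0 to 3 counts per library, Adgre1 (F4/80) 0 to 1 and the neutrophil gene Ly6g 0 to 3, while the macrophage markers Cd68, Itgam and Cd14 had 54 to 125, 14 to 47 and 11 to 35.

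Of the 10 chemokine genes, 6 changed with OSM relative to control, 2 with LIF and 0 with IL6. With OSM, Cxcl10, Cxcl1, Ccl7 and Ccl5 rose and Cx3cl1 and Cxcl12 fell. With LIF, Cxcl1 rose and Cx3cl1 fell. A call means that edgeR's quasi-likelihood test gave an adjusted p under 0.05, and over all 15603 genes tested the share called was 21.4% for OSM, 7.66% for LIF and 0% for IL6. The median log2 change of the 10 genes was 0.67 with OSM, 0.15 with LIF and 0.21 with IL6, against medians over all tested genes of -0.0028, -0.0079 and 0.00062. Because the 10 genes were chosen with earlier results of these data known, their shares and medians beside those of all genes are a description only. For IL6, 2 of the 10 genes (Ccl5 and Cxcl1) and 795 of all genes had an unadjusted p under 0.05, and the DESeq2 Wald test and limma-voom also called 0 of the 10. Without a filter on low counts edgeR called Cxcl1 for IL6 (log2 change 0.53, adjusted p 0.0039). Leaving out 1 library moved the number of genes called from 3335 to as few as 1622 for OSM (without OSM replicate 1) and from 1195 to as few as 316 for LIF (without LIF replicate 2), and from 0 to as many as 221 for IL6 (without IL6 replicate 2). For LIF it moved the number of chemokines called from 2 to 1 without control replicate 2, LIF replicate 1 or LIF replicate 2, and to 4 without control replicate 1. These comparisons share the same 2 control libraries. Between cytokines, 2 of the 10 genes differed for OSM against LIF (8.05% of all genes), 3 for OSM against IL6 (15.5%) and 1 for LIF against IL6 (2.78%).

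**Figure D1:**
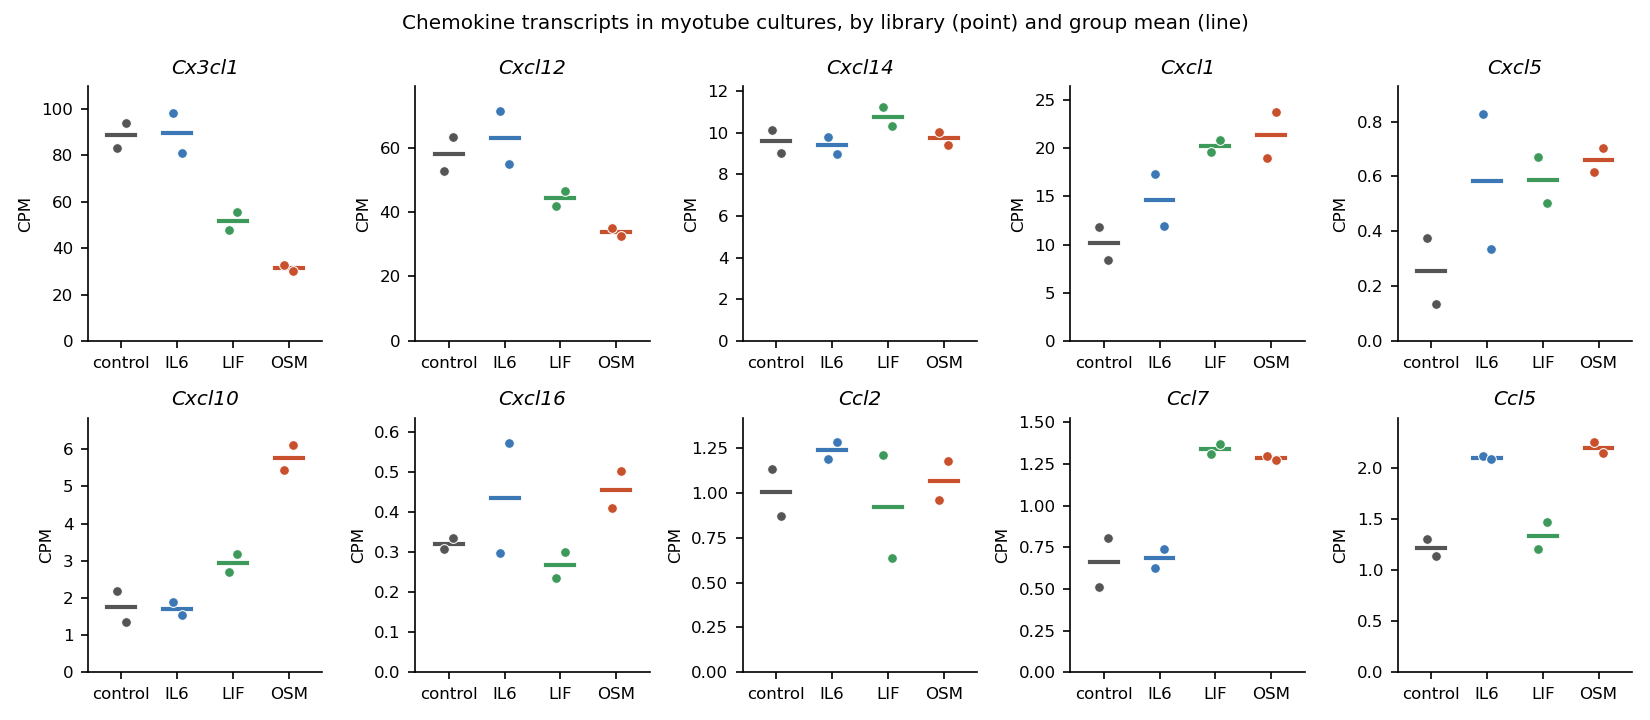
Level of each chemokine transcript in CPM (vertical axis, from 0) in each library (points) and the mean of its group (lines), for control, IL6, LIF and OSM. Cx3cl1 and Cxcl12 are lowest with OSM, Cxcl10 is highest with OSM, and Cxcl14 lies between 9.0 and 11.2 CPM in every library.

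Cx3cl1 and Cxcl16 are the membrane-bound chemokines of the set. Cx3cl1 encodes fractalkine, which is displayed on a mucin stalk, serves as an adhesion molecule for cells with the receptor CX3CR1 and becomes a soluble attractant when shed. It had 83.2 and 93.97 CPM in control, 98.3 and 81.2 with IL6, 47.9 and 55.5 with LIF, and 32.9 and 30.3 with OSM. Control and IL6 libraries overlapped, both LIF libraries lay below all of these, and both OSM libraries lay below LIF. Relative to control, Cx3cl1 fell by 1.49 on the log2 scale with OSM (SE 0.11, adjusted p 1.005e-06), a 2.81-fold lower level, and by 0.78 with LIF (SE 0.10, adjusted p 0.000852), a 1.71-fold lower level. With IL6 its log2 change was 0.019 (95% interval -0.20 to 0.24, adjusted p 0.995). Cx3cl1 also differed between each pair of cytokines. It was lower with OSM than with LIF (log2 difference -0.71, SE 0.11, adjusted p 0.00126), lower with OSM than with IL6 (-1.51, SE 0.11, adjusted p 1.28e-06) and lower with LIF than with IL6 (-0.80, SE 0.10, adjusted p 0.00163). The calls against control and of OSM against LIF were made under each of the 14 alternative fits.

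Cxcl16, the other chemokine with a membrane anchor and a ligand of CXCR6, had 7 to 17 counts per library. This is 0.309 and 0.336 CPM in control, 0.297 and 0.573 with IL6, 0.235 and 0.301 with LIF, and 0.410 and 0.503 with OSM. It was not called in any comparison, and its 95% interval for OSM against control, -0.53 to 1.53 on the log2 scale, includes both a fall and a more than 2-fold rise. In the GENCODE M21 annotation 18.3% of its exon bases overlap Zmynd15 on the opposite strand. Because the strand setting of the counting is not given in the sources used here, some of its few counts may belong to that gene.

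Cxcl12 and Cxcl14 are homeostatic chemokines, made in resting tissue. Cxcl12 is the ligand of CXCR4 and holds stem and progenitor cells, including muscle precursors, in place or guides their migration. It had 52.7 and 63.4 CPM in control, 71.3 and 54.9 with IL6, 41.95 and 46.6 with LIF, and 35.1 and 32.7 with OSM. The OSM libraries were the lowest of the 8 and the LIF libraries the next lowest. With OSM, Cxcl12 fell by 0.78 on the log2 scale (SE 0.13, adjusted p 0.00123), a 1.71-fold lower level, and this call was made under each of the 14 alternative fits. The value with LIF was -0.39 (SE 0.12, adjusted p 0.0907). It was called in 6 of the 14 alternative fits, which place LIF on either side of the threshold. With IL6 the log2 value was 0.12 (95% interval -0.15 to 0.39, adjusted p 0.959). OSM was lower than IL6 by a log2 difference of -0.90 (SE 0.13, adjusted p 0.000582). The difference of OSM from LIF, -0.39 (95% interval -0.67 to -0.11, adjusted p 0.0989), and of LIF from IL6, -0.51 (95% interval -0.78 to -0.24, adjusted p 0.0573), did not pass. These were called in 5 and in 6 of the 14 alternative fits, with DESeq2 at adjusted p 0.0352 and 0.00385.

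Cxcl14, a chemokine of epithelia and connective tissue, had 10.2 and 9.03 CPM in control, 9.78 and 9.0 with IL6, 11.2 and 10.3 with LIF, and 10.05 and 9.42 with OSM. It was not called in any comparison. Its 95% intervals against control were narrow, at -0.24 to 0.28 for OSM, -0.088 to 0.42 for LIF and -0.29 to 0.23 for IL6 on the log2 scale, so a 1.5-fold change lies outside each of them.

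Cxcl1 and Cxcl5 are neutrophil attractants that act on CXCR2. Cxcl1 had 11.8 and 8.42 CPM in control, 17.4 and 11.9 with IL6, 19.6 and 20.9 with LIF, and 19.0 and 23.7 with OSM. All IL6, LIF and OSM libraries lay above both controls, and LIF and OSM overlapped. Cxcl1 rose 2.11-fold with OSM (log2 change 1.079, SE 0.20, adjusted p 0.00356) and 1.998-fold with LIF (log2 change 0.999, SE 0.20, adjusted p 0.0135). The rise with OSM was called under each of the 14 alternative fits. The rise with LIF was lost without control replicate 2 (adjusted p 0.0637), LIF replicate 1 (0.0649) or LIF replicate 2 (0.105). The difference of OSM from LIF was 0.080 (95% interval -0.34 to 0.50, adjusted p 0.875). The difference of OSM from IL6 was 0.55 (SE 0.19, adjusted p 0.0892) and did not pass. It was called in 6 of the 14 alternative fits, with DESeq2 at adjusted p 0.0226. With IL6 the log2 change was 0.53 (SE 0.20, adjusted p 0.943). This value was 0.24 without IL6 replicate 1 and 0.78 without IL6 replicate 2.

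Cxcl5 was far less abundant, with 4 to 25 counts per library. It had 0.377 and 0.134 CPM in control, 0.826 and 0.337 with IL6, 0.672 and 0.502 with LIF, and 0.615 and 0.704 with OSM. Both LIF and both OSM libraries lay above the controls. No comparison passed: against control the log2 value was 1.36 for OSM (SE 0.55, adjusted p 0.103), 1.19 for LIF (SE 0.56, adjusted p 0.254) and 1.18 for IL6 (SE 0.56, adjusted p 0.943). At this depth the 95% interval for OSM runs from 0.16 to 2.55.

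Cxcl10 is induced by interferons and attracts activated T cells and natural killer cells through CXCR3. It had 2.19 and 1.342 CPM in control, 1.88 and 1.55 with IL6, 2.69 and 3.18 with LIF, and 5.44 and 6.10 with OSM. The OSM libraries were the highest, the LIF libraries lay between, and IL6 overlapped control. Cxcl10 rose 3.26-fold with OSM (log2 change 1.71, SE 0.23, adjusted p 0.000125), the largest called rise among the 10 genes, and the call was made under each of the 14 alternative fits. With LIF the log2 value was 0.73 (SE 0.24, adjusted p 0.0934), and with IL6 it was -0.039 (adjusted p 0.998). Cxcl10 was higher with OSM than with IL6 (log2 difference 1.75, SE 0.23, adjusted p 0.000136) and than with LIF (0.97, SE 0.21, adjusted p 0.0114). The call against LIF was lost without LIF replicate 1 (adjusted p 0.183), LIF replicate 2 (0.0607), OSM replicate 1 (0.0781) or OSM replicate 2 (0.125). In M21, 5.91% of its exon bases overlap Art3 on the opposite strand.

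**Figure D2:**
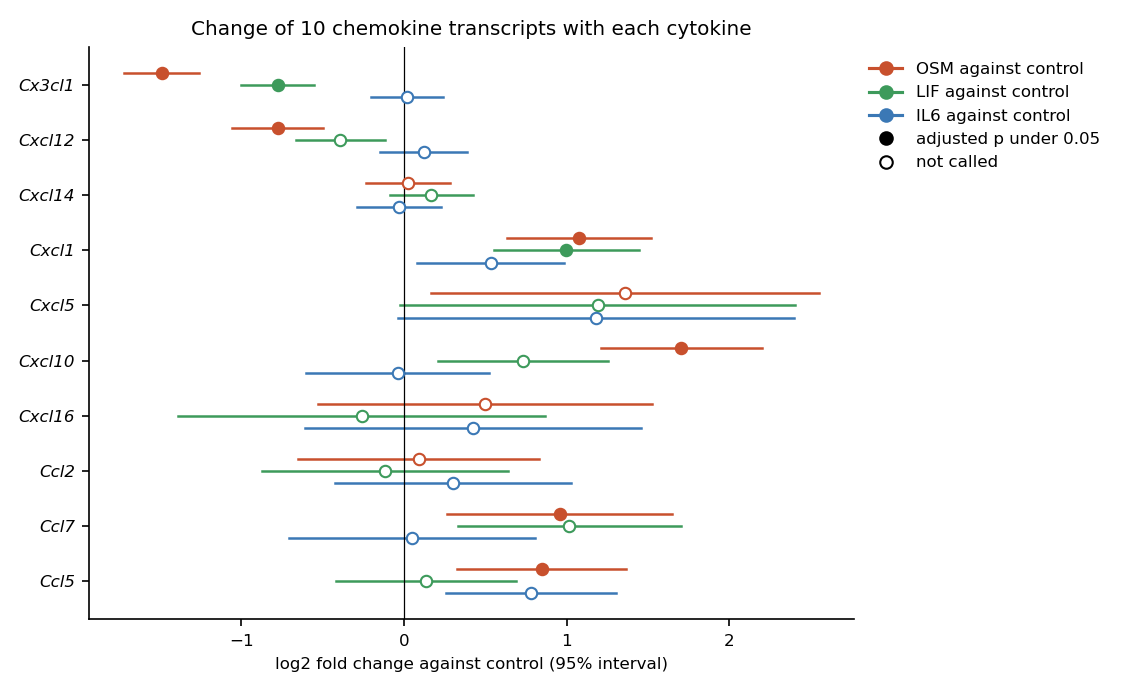
Log2 fold change against control (horizontal axis) of each chemokine gene with OSM, LIF and IL6, with 95% intervals from the fit (lines); filled points have an adjusted p under 0.05. The OSM points of Cx3cl1 (-1.49) and Cxcl10 (1.71) are the lowest and highest, and Ccl5 is filled only for OSM, although its IL6 value (0.78) is close to its OSM value (0.85).

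The CC chemokines Ccl2, Ccl7 and Ccl5 attract monocytes, the first pair mainly through CCR2, and Ccl5 also attracts T cells. All were scarce. Ccl2 had 19 to 38 counts per library, which is 1.13 and 0.873 CPM in control, 1.19 and 1.28 with IL6, 1.21 and 0.636 with LIF, and 0.957 and 1.17 with OSM. It was not called in any comparison, and its log2 change with OSM was 0.090 with a 95% interval of -0.65 to 0.83, which includes a 1.5-fold change in either direction.

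Ccl7 had 0.514 and 0.805 CPM in control, 0.628 and 0.742 with IL6, 1.31 and 1.37 with LIF, and 1.30 and 1.27 with OSM. It had 15 to 41 counts per library, and every LIF and OSM library was above every control and IL6 library. The log2 change was 0.96 with OSM (SE 0.32, adjusted p 0.0488), a 1.94-fold rise that just passed, and 1.02 with LIF (SE 0.32, adjusted p 0.0730), which did not. OSM and LIF differed by -0.060 (95% interval -0.68 to 0.56, adjusted p 0.942). The call with OSM was made in 6 of the 14 alternative fits. It was lost without control replicate 1 (adjusted p 0.281), LIF replicate 1 (0.0757), LIF replicate 2 (0.0760), OSM replicate 1 (0.180) or OSM replicate 2 (0.150), without a filter on low counts (0.0608), with only the groups compared (0.0583) and with DESeq2 (0.173).

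Ccl5, with 34 to 66 counts per library, showed another order of the groups. It had 1.30 and 1.14 CPM in control, 2.12 and 2.09 with IL6, 1.21 and 1.47 with LIF, and 2.26 and 2.15 with OSM. IL6 and OSM libraries lay above all control and LIF libraries, and control and LIF overlapped. Ccl5 rose 1.80-fold with OSM (log2 change 0.85, SE 0.24, adjusted p 0.0233). The value with IL6 was 0.78 (SE 0.24, unadjusted p 0.00647, adjusted p 0.943) and with LIF 0.13 (SE 0.26, adjusted p 0.837). OSM against LIF (0.71, adjusted p 0.0916) and LIF against IL6 (-0.65, adjusted p 0.202) did not pass, and OSM against IL6 was 0.066 (95% interval -0.42 to 0.55, adjusted p 0.890). The call with OSM was made in 9 of the 14 alternative fits. It was lost without control replicate 1 (adjusted p 0.0590), control replicate 2 (0.106), OSM replicate 1 (0.125) or OSM replicate 2 (0.0851), and with DESeq2 (0.0899).

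Levels of different chemokines were compared per exon length, as CPM per kilobase of the M21 exons of each gene. In control cultures Cx3cl1 was the most abundant, at 22.5 ± 1.93 CPM per kb (SD, n = 2), followed by Cxcl12 (7.10 ± 0.924), Cxcl1 (5.40 ± 1.29) and Cxcl14 (5.25 ± 0.435). Ccl5 stood at 1.27 ± 0.119 CPM per kb, Ccl2 at 0.881 ± 0.161, Ccl7 at 0.824 ± 0.257 and Cxcl10 at 0.785 ± 0.268, and Cxcl5 (0.137 ± 0.0922) and Cxcl16 (0.107 ± 0.00631) came last. In this order the control libraries of Cxcl1 and Cxcl14, of Ccl2, Ccl7 and Cxcl10, and of Cxcl5 and Cxcl16 overlapped. With OSM, Cxcl1 came first at 11.4 ± 1.79 CPM per kb and Cx3cl1 second at 8.03 ± 0.469, without overlap of their libraries. Cxcl14 followed at 5.33 ± 0.243, Cxcl12 at 4.14 ± 0.209 and Cxcl10 at 2.56 ± 0.210. Of the summed per-length level of the 10 genes, Cx3cl1 made up 50.9% ± 3.49 in control, 46.8% ± 0.325 with IL6, 32.2% ± 1.87 with LIF and 21.8% ± 1.96 with OSM, and Cxcl1 made up 12.2% ± 3.11, 15.8% ± 1.93, 26.4% ± 0.0636 and 30.9% ± 3.88 (SD, n = 2).

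**Figure D3:**
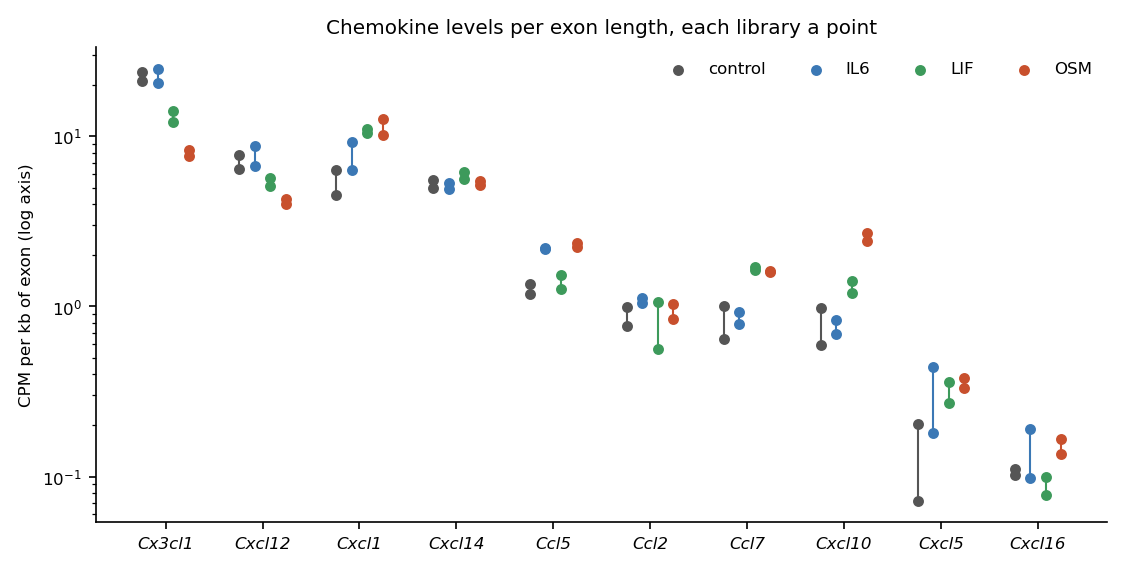
Level of each chemokine in CPM per kilobase of exon (vertical log axis) in each library (points, joined within a group), ordered by the control mean. Cx3cl1 stands alone at the top in control and IL6, and with OSM both Cxcl1 libraries lie above both Cx3cl1 libraries.

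Genes with the most similar pattern were sought for the called chemokines with a mean of at least 100 counts, by Pearson r of log2 CPM over the 8 libraries among 10746 protein-coding genes. The libraries of a group share their treatment, so r reflects mainly the 4 group levels and is given as a description. For Cx3cl1 the closest were Nr4a2, an orphan nuclear receptor gene (r = 0.994), Orc6, a subunit of the origin recognition complex (r = 0.990), and Fam171b (r = 0.990). Their log2 changes with OSM were -0.88, -0.95 and -0.67. For Cxcl12 they were Pidd1 (r = 0.984), Cx3cl1 itself (r = 0.976) and Exoc2, an exocyst subunit gene (r = 0.974). For Cxcl1 they were Mfsd9 (r = 0.985), the kinase gene Dyrk2 (r = 0.982) and Ppp2r3a (r = 0.977), with smaller log2 changes with OSM of 0.45, 0.11 and 0.25. Of these, Dyrk2 (adjusted p 0.182) and Exoc2 (adjusted p 0.143) were not called with OSM.

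Promoter sequences from RefSeq on GRCm38.p6 were found for 5 of the 10 genes, namely Cxcl1, Cxcl10, Cxcl12, Cxcl14 and Cx3cl1. None was found for Ccl7 or Ccl5, which were also called higher with OSM. The 250 bases before the start site are shown for the members with the largest called rise and fall, Cxcl10 and Cx3cl1, and for Cxcl1 and Cxcl12, called in the same directions. They lie at chr5:92348890-92349139 (minus strand), chr8:94771930-94772179 (plus), chr5:90890995-90891244 (plus) and chr6:117168285-117168534 (plus), in that order. Capitals mark matches, on either strand, to the STAT motif TTCNNNGAA, to the interferon-stimulated response element (ISRE) core GAAANNGAAA or to the NF-kappaB consensus.

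Cxcl10: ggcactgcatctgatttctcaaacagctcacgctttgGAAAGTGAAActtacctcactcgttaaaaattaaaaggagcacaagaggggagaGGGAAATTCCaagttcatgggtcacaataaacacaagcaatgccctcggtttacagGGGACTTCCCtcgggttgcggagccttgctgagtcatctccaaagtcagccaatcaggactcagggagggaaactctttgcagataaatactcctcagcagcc

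Cxcl1: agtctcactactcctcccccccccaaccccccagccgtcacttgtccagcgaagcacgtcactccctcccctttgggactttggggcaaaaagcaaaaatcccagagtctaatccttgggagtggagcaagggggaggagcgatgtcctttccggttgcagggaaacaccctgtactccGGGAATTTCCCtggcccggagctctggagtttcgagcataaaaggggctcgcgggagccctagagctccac

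Cx3cl1: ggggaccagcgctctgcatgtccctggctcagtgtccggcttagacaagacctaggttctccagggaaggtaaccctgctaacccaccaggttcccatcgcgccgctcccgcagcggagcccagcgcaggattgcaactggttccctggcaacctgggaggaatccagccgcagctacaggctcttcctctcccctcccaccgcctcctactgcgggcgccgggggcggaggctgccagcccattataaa

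Cxcl12: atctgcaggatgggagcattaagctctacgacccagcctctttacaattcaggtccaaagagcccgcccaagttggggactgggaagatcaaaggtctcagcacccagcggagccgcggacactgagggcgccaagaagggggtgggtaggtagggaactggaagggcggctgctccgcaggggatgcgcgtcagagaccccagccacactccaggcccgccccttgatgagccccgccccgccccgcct

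The Cxcl10 window held 1 ISRE match, GAAAGTGAAA, at 213 to 204 bases before the start, and NF-kappaB matches at 159 to 150 and 103 to 94 bases. The Cxcl1 window held a stretch at 71 to 61 bases before the start that matched the NF-kappaB consensus on both strands, in overlapping positions. The window of Cxcl14, which was not called in any comparison, held 1 STAT match at 191 to 183 bases and 1 ISRE match at 172 to 163 bases before the start. The Cx3cl1 and Cxcl12 windows held no match to any of the 3 motifs, and no match to the STAT motif was found in the 4 windows printed. Of all 32851 promoter windows of this length in the table, 7.02% held the STAT motif, 2.98% the ISRE core and 3.90% the NF-kappaB consensus. A match describes these letters only, and the start sites used in the cultures were not measured.

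Genes around the chemokines were taken from lists, which were also chosen with earlier results of these data known. Of 26 other chemokine genes, 11 had 0 counts in all libraries. A count of 0 in a single library still allows up to 3 expected counts, and 0 in all libraries allows fewer. Of the 26, 3 were tested (Ccl20, Ccl25 and Ccl28), and edgeR called 0 of them in each of the 6 comparisons (1 had an unadjusted p under 0.05 for OSM against control). Ccl25 was the most abundant of them, at 7.62 to 10.2 CPM. Ccl20, an attractant of CCR6 cells, had 2 and 2 counts in control, 11 and 0 with IL6, 1 and 1 with LIF, and 10 and 11 with OSM. It passed the filter on low counts only through those higher libraries (adjusted p 0.112 for OSM against control).

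Of 22 chemokine receptor genes, 7 had 0 counts in every library, among them Ccr2 and Cxcr3, the receptors of Ccl2 and Cxcl10. Cx3cr1, the receptor of fractalkine, had 4 to 16 counts. Only Cxcr4 and Ackr3, the receptors of Cxcl12, were tested, and both rose with OSM, where 10.8% of all tested genes were called higher. Ackr3, a scavenging receptor that removes Cxcl12, had 39.2 and 31.8 CPM in control, 57.6 and 36.1 with IL6, 58.9 and 54.4 with LIF, and 96.4 and 79.3 with OSM. It rose 2.47-fold with OSM (log2 change 1.31, SE 0.22, adjusted p 0.00507), and both OSM libraries exceeded the other 6. Cxcr4, the signalling receptor, had 4.15 and 3.66 CPM in control, 4.76 and 4.62 with IL6, 5.01 and 5.09 with LIF, and 7.45 and 5.30 with OSM, a 1.63-fold rise with OSM (log2 change 0.71, SE 0.18, adjusted p 0.0125). With LIF the log2 values were 0.67 for Ackr3 (adjusted p 0.134) and 0.37 for Cxcr4 (adjusted p 0.276), and neither passed.

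**Figure D4:**
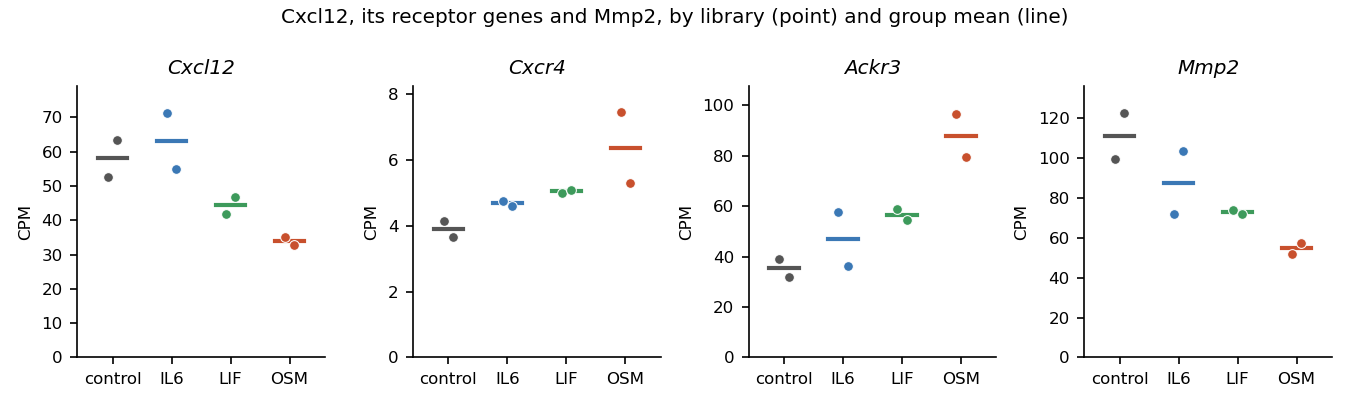
Level in CPM (vertical axis, from 0) of Cxcl12, its receptor genes Cxcr4 and Ackr3, and Mmp2 in each library (points) with group means (lines). With OSM, Cxcl12 and Mmp2 are lowest and Cxcr4 and Ackr3 highest; the Cxcr4 libraries with OSM lie apart, at 7.45 and 5.30 CPM.

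Of 10 genes that process chemokine proteins or control chemokine mRNA decay, 9 were tested, and with OSM 3 rose and 2 fell, where 21.4% of all tested genes were called. Mmp2, a metalloproteinase that cleaves Cxcl12, fell by 1.02 on the log2 scale (SE 0.16, adjusted p 0.00242), from 99.6 and 122.5 CPM in control to 51.9 and 57.4 with OSM. Adam10, which sheds Cx3cl1 and Cxcl16 from the membrane, rose by 0.30 with OSM (SE 0.061, adjusted p 0.00313) and by 0.29 with LIF (SE 0.061, adjusted p 0.00989). Adam17, another sheddase, was not called. Of 4 mRNA decay genes, Zfp36 and Zc3h12a rose with OSM, by 0.56 and 0.43, and with LIF, by 0.58 and 0.44. The others, Zfp36l1 (log2 value with OSM 0.021, adjusted p 0.904) and Khsrp (0.084, adjusted p 0.398), were not called. Elavl1, an mRNA-stabilizing factor, fell by 0.24 with OSM. With LIF 3 of the 9 were called, all higher, against 7.66% of all tested genes, and with IL6 edgeR called 0.

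Of 17 NF-kappaB feedback and target genes, 15 were tested, and 6 rose and 0 fell with OSM. They were Nfkbia, Nfkb2, Relb, Rela, Bcl3 and Cebpd, with log2 changes of 0.32 to 0.81. Of the 15 log2 values with OSM, 13 lay above 0 and 2 below, among the latter Tnfaip3 (-0.15, adjusted p 0.199). Nfkbiz was not called either (0.074, adjusted p 0.654). Birc3 and Icam1 were not tested, with 0 to 8 and 0 to 5 counts per library. With LIF 5 rose, and with IL6 edgeR called 0. The list's median log2 change was 0.24 with OSM, where 10.8% of all tested genes were called higher, and 0.26 with LIF, where 4.20% were. Nfkbia, the inhibitor that NF-kappaB itself induces, went from 45.6 and 42.3 CPM in control to 72.7 and 67.6 with OSM (log2 change 0.67, SE 0.095, adjusted p 0.000225).

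Of 20 interferon-response genes, 18 were tested. With OSM 9 rose and 3 fell (median log2 change 0.13), with LIF 6 rose and 0 fell (median 0.14), and with IL6 edgeR called 0. Among all tested genes 21.4% were called with OSM and 7.66% with LIF. For OSM against LIF, 15 of the 18 were not called. Ifit1, an antiviral gene, had 44.5 and 54.4 CPM with OSM and 71.3 and 67.4 with LIF, a log2 difference of OSM from LIF of -0.49 (SE 0.10, adjusted p 0.00868), while Cxcl10 was higher with OSM than with LIF. Gbp3, a guanylate-binding protein gene, had 5.16 and 6.84 CPM with OSM and 4.13 and 3.35 with LIF, the same order as Cxcl10, and its difference did not pass (0.68, SE 0.22, adjusted p 0.0848). No interferon-response gene was higher with OSM than with LIF by edgeR's test, and Stat2, like Ifit1, was lower (log2 difference of Stat2 -0.31, SE 0.081, adjusted p 0.0294).

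In bulk RNA, a change in the number of cells of a type and a change in RNA per cell cannot be told apart. With OSM, 10.8% of all tested genes were called higher and 10.6% lower. Some fibroblast markers moved with the groups. Of 6 listed, 4 were tested and 2 rose with OSM: Pdgfra from 8.23 and 9.60 CPM in control to 11.3 and 14.4, and Col3a1 from 1331 and 1533 to 1971 and 2063. Col1a1 went the other way without being called, with 309 and 169 CPM in control, 92.1 and 161 with IL6, 183 and 118 with LIF, and 72.1 and 84.7 with OSM. Dcn was not called with OSM (log2 value 0.17, adjusted p 0.678 in edgeR). Lum had 0 counts in every library and Thy1 0 or 1. The summed fibroblast level was 1651 to 1715 CPM in control, 1503 to 1702 with IL6, 1982 to 2045 with LIF and 2057 to 2165 with OSM, most of it Col3a1. Of 5 myoblast markers, Pax7 and Myf5 rose with OSM. Not called with OSM were Myod1 (log2 value 0.057, adjusted p 0.761), Cdh15 (0.19, adjusted p 0.127) and Vcam1 (0.20, adjusted p 0.476). Of 7 macrophage markers, 3 were tested and Cd68, also a lysosomal protein of other cells, rose with OSM from 1.85 and 2.11 CPM to 4.27 and 3.82. The summed macrophage level was 3.05 to 3.49 CPM in control, 3.71 to 5.32 with IL6, 4.27 to 4.72 with LIF and 5.77 to 6.63 with OSM, with Adgre1 and Ptprc near 0. Endothelial markers summed to 1.10 to 1.91 CPM over the 8 libraries, and 2 of 5 were tested and 0 called in edgeR. Smooth muscle and pericyte markers summed to 525 to 641 CPM in control and 719 to 722 with OSM, nearly all of it Acta2. With OSM Acta2 rose, Rgs5 fell and Cspg4 was not called (log2 value -0.75, adjusted p 0.256). Myh11 had 2 to 9 counts per library. The part of these markers in the chemokine results was not tested.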

How the data were processed

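The authors deposited raw read counts per Ensembl gene, 1 file for each of the 8 libraries, without pooling replicates. Per the labels' protocols, a stranded mRNA kit was used for the libraries. The submitters' processing notes name the build GRCm39 and FastQC 0.11.9, MultiQC 1.12, Trim Galore 0.6.5, STAR 2.7.3a, HTSeq 0.11.1 and DESeq2 1.34.0. The annotation release and strand setting are not given in the sources used here. Summary lines for reads assigned to no gene, to several genes or to several places held 11.7% to 12.7% of each file's total and were left out.

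Symbols came from GENCODE M21, an annotation of GRCm38, which named 52093 of 53647 identifiers; exon lengths and overlaps were taken from it too, and as the builds differ no gene coordinates are given. Promoters are RefSeq's, on GRCm38.p6. Genes were filtered with filterByExpr (minimum count 10), which left 15603 genes and all 10 chemokines, scaled by TMM and fitted with edgeR 4.0.16 in R 4.3.3 (glmQLFit, robust, 1 mean for each of 4 groups, 4 residual degrees of freedom). Quasi-likelihood tests of 6 contrasts were adjusted by Benjamini and Hochberg over all tested genes. SEs and 95% intervals are those implied by the F statistic. CPM uses TMM-scaled library sizes, and r uses log2 CPM with a prior count of 2. The fit was tested on simulated data. The alternatives used DESeq2 1.42.0, limma 3.58.1 and other edgeR settings. The limit given for a count of 0 covers counting error only.

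All 10 chemokines are named. For called chemokines with a mean of at least 100 counts, the 3 tested protein-coding genes with the highest r are named, leaving out Gm and Rik names. Of the lists, genes past the threshold could be named; the other list members that are named, such as Ccl20, Ccl25, Adam17, Zfp36l1, Khsrp, undetected receptors and marker genes, were chosen after their values were seen. The chemokines and lists were chosen with earlier results of these data known. Some members of the lists are not reported here by name.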

Additional observations from a re-analysis of the deposited data

How the results depend on the processing

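Of 837 recomputed log2 changes of the 10 chemokines (10 genes, 6 contrasts, up to 14 alternatives), 788 stayed on their side of the threshold, 20 lost and 29 gained a call, and 0 called values changed sign; 27 values called in neither fit did. Cxcl16 fell below the filter with only the groups compared for LIF against control, IL6 against control and LIF against IL6, and has no value there. Without a filter on low counts, the chemokines called were 4 for LIF against control, 1 for IL6 against control (Cxcl1) and 4 for LIF against IL6, and all genes called were 97 for IL6 against control and 985 for LIF against IL6. With the DESeq2 Wald test these were 2 chemokines for LIF against IL6 and 14 genes for IL6 against control, and with limma-voom 2 chemokines for LIF against IL6. With only the groups compared, 4 chemokines and 2928 genes were called for OSM against LIF. The cause of these shifts was not tested.

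Leaving out 1 library at a time gave 4 to 6 chemokines for OSM against control, 1 to 4 for LIF against control, 0 to 0 for IL6 against control, 1 to 3 for OSM against LIF, 3 to 4 for OSM against IL6 and 1 to 2 for LIF against IL6. Only Cx3cl1 was called for LIF against control without control replicate 2, LIF replicate 1 or LIF replicate 2, and for OSM against LIF without any 1 of the LIF or OSM libraries. Over all genes the ranges were 1622 to 4067, 316 to 1688, 0 to 221, 437 to 1764, 1105 to 2713 and 82 to 739 in the same order. A group left with 1 library was taken to vary like the others.

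With the replicate number as a block (replicate block), no chemokine call of the main fit was lost or gained, and 6 were called for OSM against control; all genes called were 9 for IL6 against control and 826 for LIF against IL6. The labels do not say that numbers pair libraries, and the deviations of same-numbered libraries correlated at 0.0071 to 0.18 over genes between groups. Depth limits the results for Ccl2, Ccl7, Ccl5, Cxcl5 and Cxcl16, with means of 11 to 51 counts.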
